A study of Mus musculus with 4 samples.

Results

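The comparison described here is between a Dyrk2 knockout library and a wild-type library, both from primary mouse embryonic fibroblasts stimulated through the Hedgehog pathway. Its members are the genes with at least 1 FPKM in either library, a unit that divides a gene's fragments by its length and by the library's total. They number 12450 of the 55573 gene identifiers in each file, and 10982 of them are protein-coding. Of the members, 209 had 1 to 1.1 FPKM in the higher library, and 251 genes at 0.9 to 1 FPKM were just outside.

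The series asks what the kinase DYRK2 does in Hedgehog signalling. All 4 cultures were primary mouse embryonic fibroblasts (MEFs), cells taken from embryos and not an established line. Every culture was exposed for 24 h to SAG at 100 nM, a compound that activates Smoothened. The genotypes and treatments were wild type (WT), Dyrk2 knockout (Dyrk2-KO), siNeg (a negative-control siRNA) and siDyrk2 (an siRNA against Dyrk2), with 1 library each. The labels give no strain, embryonic age or design of the knockout allele, and leave unstated whether separate embryos were used. With 1 library a side no test was possible, so every difference is between these libraries. Intervals cover counting error only.

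In the Hedgehog pathway, ligand binding to Patched receptors at the primary cilium releases Smoothened, which then turns the Gli transcription factors from repressors into activators. Gli1, Ptch1 and Hhip are among the direct targets, and Ptch1 and Hhip encode proteins that restrain the pathway in turn. SAG acts on Smoothened itself and so bypasses ligand and Patched. In embryonic mesenchyme the pathway is known for roles in patterning and growth.

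Estimated depth was 19979500 to 23926000 fragments per library, and 11939 to 12106 genes reached 1 FPKM. The 7 defining fibroblast markers were measured in both libraries, at 40.1 to 3233 FPKM in wild type and 35.5 to 3276 in the knockout. Of the defining markers of other cell types, Hba-a1 and Hbb-bt were at 0 in both libraries and none of the 4 epithelial ones reached 1 FPKM. Of the 4 endothelial ones Tek was measured, at 4.63 FPKM in wild type against 4.52 in the knockout, and Pecam1 was at 0.01 and 0. Some markers of further types were measured too. Among them were Cspg4 (11.6 and 9.56 FPKM in wild type and knockout) and Myh11 (1.66 and 1.22) of pericytes and smooth muscle. Others were Tubb3 of neurons (7.81 and 4.67) and Sox9 (3.99 and 3.95) and Runx2 (3.03 and 2.05) of cartilage and bone. Macrophage markers were present and are given with the immune genes. In bulk RNA, fewer cells of a type and less RNA per cell cannot be told apart.

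Dyrk2 (ENSMUSG00000028630, chromosome 10, 118855603 to 118870209, GRCm38, minus strand) was low in both libraries labelled as lacking or depleted of it. It was at 6.59 FPKM in wild type, 0.57 in the knockout, 7.06 with siNeg and 0.81 with siDyrk2. The knockout held 78 fragments of the gene against 986, an 11.6-fold lower value (95% counting interval 9.17 to 14.7). Values summed over a gene cannot place the remaining fragments on particular exons. The other measured kinases of the DYRK and HIPK families were close to wild type, from Dyrk1a at a log2 ratio of -0.08 to Dyrk1b at 0.21. Of 14 measured genes of the DYRK2 ligase complex and its proposed substrates, Snai1 (-0.63) was the lowest and Myc (0.29) the highest.

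The bulk of the transcriptome differed little. All ratios are log2 of (FPKM + 1) in the knockout over (FPKM + 1) in wild type, and their median over the members was -0.02. Of the members, 5469 were higher in the knockout and 6924 lower. The lowest 5% of ratios lay under -0.52 and the highest 5% above 0.42. At least 2-fold higher were 73 genes (0.586%), and 155 were at least 2-fold lower (1.24%). Another 20 genes were 1.9 to 2-fold higher and 29 were 1.9 to 2-fold lower, just outside the rule. Of the 2-fold genes 116 were not protein-coding, and 101 of these held at most 20 fragments in both libraries, so the account rests on protein-coding genes. Of these, 27 were at least 2-fold higher (0.246%) and 85 at least 2-fold lower (0.774%).

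**Figure D1:**
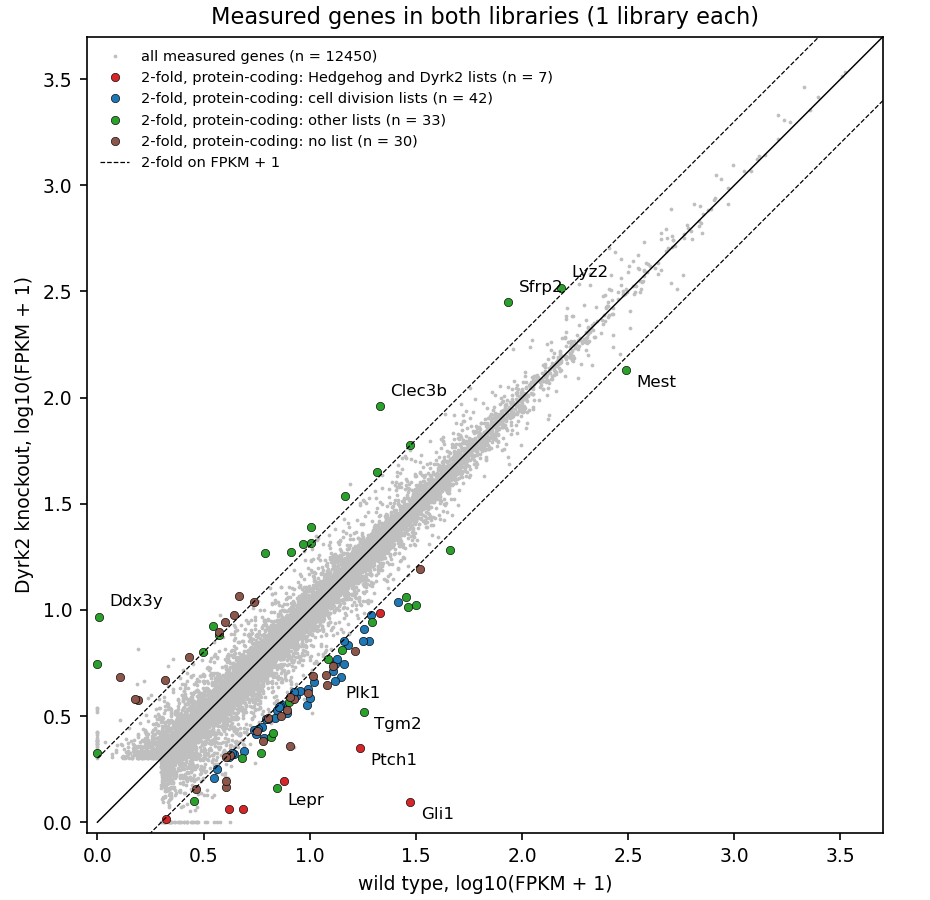
Levels of the 12450 measured genes in wild type (horizontal axis) and the Dyrk2 knockout (vertical axis), both as log10(FPKM + 1), with the 112 protein-coding genes past 2-fold coloured by the kind of gene list that holds them. Most grey points lie between the dashed 2-fold lines. Gli1, Ptch1, Tgm2 and Lepr lie far below the line of equality, and Ddx3y, Clec3b and Sfrp2 above it.

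The knockout was the library with the lowest value of all 4 in 77 of the 85 lower genes, and the one with the highest in 25 of the 27 higher genes. These genes were picked by the knockout against wild type, so its place relative to wild type was fixed in advance. The matching counts over all genes were not made. By the gene lists used here, the 85 lower genes comprised 7 Hedgehog genes with Dyrk2 included, 42 cell division genes, 16 genes of other lists and 20 genes of no list. These groups differed in the siRNA pair, which shares no library with the knockout pair. Over the same 10982 genes 46 were at least 2-fold lower with siDyrk2 (0.419%). All 7 Hedgehog genes were among them, with 10 of the 16, 5 of the 20 and 0 of the 42 cell division genes. The 22 genes lower in both pairs were thus 22 of 85 and 22 of 46. Dyrk2 is counted among the 22 and among the 7, and its fall in both pairs was set by the design. Between siNeg and wild type, both with Dyrk2 intact, 15 of the 10982 were at least 2-fold lower (0.137%).

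**Figure D2:**
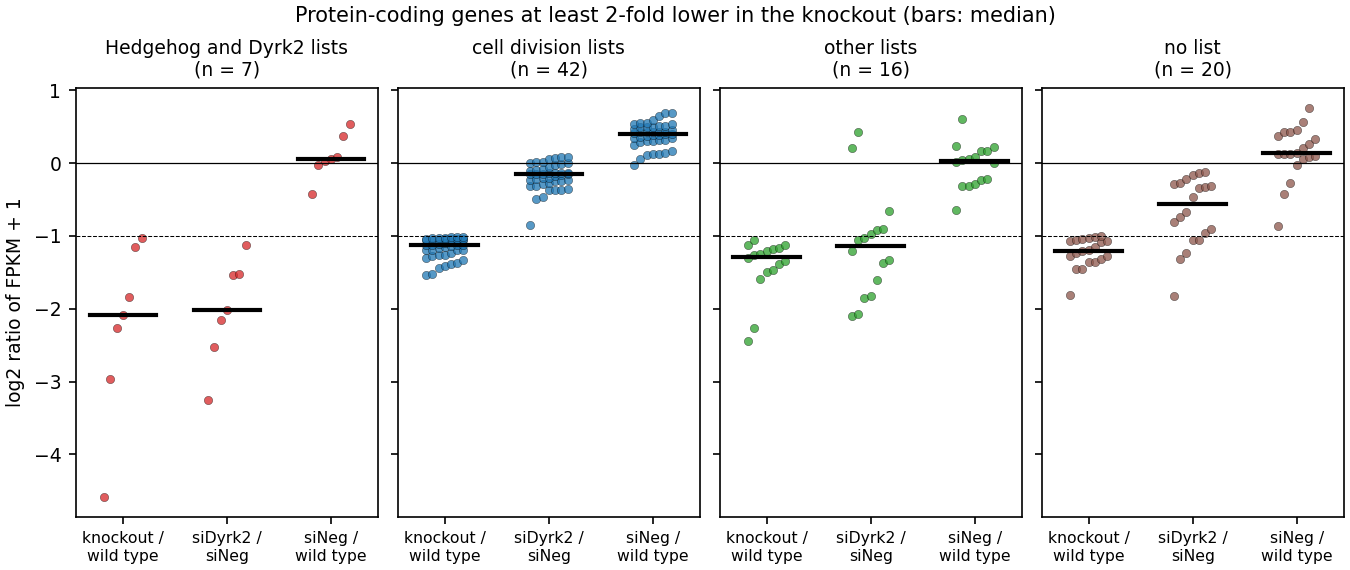
Log2 ratios of the 85 protein-coding genes at least 2-fold lower in the knockout, by group, in the knockout pair, the siRNA pair and between both controls. Each point is a gene and each bar a median. The 7 Hedgehog genes, Dyrk2 included, have medians of -2.08 and -2.02 in the knockout and siRNA pairs. The 42 cell division genes have medians of -1.12 and -0.15, with 0.41 between siNeg and wild type. The comparisons of the knockout and of siNeg with wild type share the wild-type library.

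Among Hedgehog receptors and antagonists, those that are also targets were low in the knockout. Ptch1, the receptor, was at 16.3 FPKM in wild type, 1.23 in the knockout, 16.0 with siNeg and 1.95 with siDyrk2. Hhip, which encodes a membrane protein that binds Hedgehog ligands, was at 3.87, 0.15, 2.64 and 0.25 FPKM in the same order, 25.8-fold lower in the knockout (17.8 to 38.2). For both genes, both libraries with intact Dyrk2 were above both libraries with lowered Dyrk2, without overlap. The share of all genes that separate in this way was not computed. Smo, the Smoothened gene, was at 35.4 FPKM in wild type against 33.3 in the knockout. The co-receptor gene Gas1 was higher, at 185 against 111 FPKM (1.67-fold, 1.63 to 1.72), and it was also higher with siDyrk2 (130) than with siNeg (96.7). The co-receptors Cdon (0.22) and Boc (0.21) were above wild type in the knockout and below siNeg with siDyrk2, at -0.36 and -0.30.

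Of 33 measured genes that carry the signal from Smoothened to the Gli factors, 2 were at least 2-fold lower, against 0.774% of protein-coding genes, none was 2-fold higher, against 0.246%, and the list's median was -0.05. Both were Gli genes. Gli1, itself a target, was at 28.8 FPKM in wild type, 0.24 in the knockout, 30.2 with siNeg and 2.25 with siDyrk2, so that 26 fragments in the knockout stood against 3443. Gli2, the main activator, was at 20.4, 8.66, 20.8 and 9.05 FPKM, 2.35-fold lower in the knockout (2.21 to 2.51). Gli3, which mostly acts as a repressor, was at 8.05, 8.64, 7.98 and 7.07 FPKM and showed no such gap. Next lowest was Tulp3 (-0.40), a ciliary trafficking factor. Sufu, a Gli inhibitor, was at -0.18, the kinesin gene Kif7 at -0.12, the protein kinase A genes Prkaca at -0.13 and Prkar1a at 0.01, and the Gli ubiquitin ligase adaptor Spop at 0.13. Of the ligand-release genes, Disp1 was at 0.48 and Hhat at -0.19. Among 40 measured genes of intraflagellar transport and the BBSome none was past 2-fold and the median was -0.00, and 38 genes of the transition zone and basal body had one of 0.01.

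**Figure D3:**
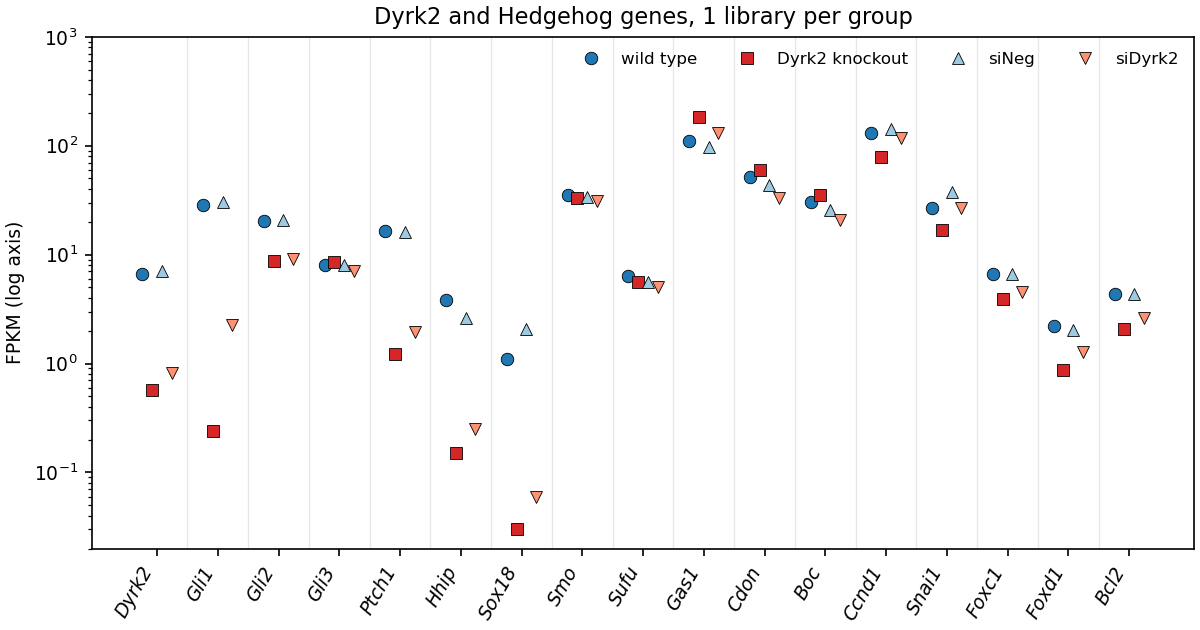
FPKM (log axis) of Dyrk2 and 16 Hedgehog genes in the 4 libraries, with 1 symbol per library. For Gli1, Gli2, Ptch1, Hhip and Sox18 the knockout and siDyrk2 symbols lie below both control symbols, while Smo, Sufu and Gli3 have all 4 symbols close together.

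Of 25 measured Hedgehog target genes 19 were lower. At least 2-fold lower were 5 of them, against 1.24% of all members, and the median was -0.33 against -0.02 over all members. Besides Gli1, Ptch1 and Hhip they included Sox18, a vascular transcription factor gene. It rested on 43 fragments in wild type and 1 in the knockout, 37-fold lower with an interval of 6.69 to 1588.3. Further targets lay between -0.78 and -0.55, with the knockout as the lowest of the 4 libraries for each of those named here. Ccnd1, the cyclin D1 gene, was at 132, 78.6, 142 and 118 FPKM in wild type, knockout, siNeg and siDyrk2. The forkhead genes Foxd1 (-0.78), Foxc1 (-0.63) and Foxc2 (-0.55), the survival gene Bcl2 (-0.78) and Snai1 (-0.63), a repressor of epithelial genes, were the others. Against the direction of the list, Igfbp6 (0.54), Osr1 (0.39) and Sfrp1 (0.38) were higher in the knockout. In the siRNA pair those 3 were at -0.08, 0.08 and -0.08.

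Outside the Hedgehog lists, several genes were lower by as much in both pairs. Tgm2, a crosslinking transglutaminase, was at 17.0 FPKM in wild type, 2.29 in the knockout, 26.2 with siNeg and 5.33 with siDyrk2. Lepr, the leptin receptor, was at 5.98, 0.45, 3.48 and 0.24 FPKM, 13.3-fold lower in the knockout (10.5 to 17.3). St8sia2, which adds polysialic acid to NCAM, was at 30.6, 9.51, 24.5 and 6.14 FPKM. For these 3 genes both libraries with lowered Dyrk2 were below both controls, as they were for the tetraspanin Tspan11 (-1.50 and -1.61 in the knockout and siRNA pairs), the angiopoietin Angpt4 (-1.38 and -1.37) and the serpin Serpinb9b (-1.35 and -1.33). These genes were picked as lower in both pairs, which partly sets that order, and its share over all genes was not computed. The insulin receptor adaptor Grb14 was at -1.25 and -1.03. Icosl, Trabd2b, Mr1 and Sorcs2, which fall outside the rule for named genes and were picked after their values were seen, are among the 22 together with 3 imprinted genes.

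Those imprinted genes were Mest (310, 134, 322 and 154 FPKM in wild type, knockout, siNeg and siDyrk2), Zim1 (27.3, 10.5, 23.3 and 4.8) and Nnat (4.89, 1.12, 5.91 and 1.99). Mest, Nnat and Peg3 are expressed from the paternal allele and Zim1 from the maternal one. Peg3, a zinc finger gene next to Zim1, was at -0.83 in the knockout pair and -1.25 in the siRNA pair. Of the 29 measured imprinted genes 18 were lower and 10 higher, with a median of -0.05. Cdkn1c, a maternally expressed inhibitor of cyclin-dependent kinases, was higher in the knockout at 381 against 208 FPKM, and H19 was at 0.44. In the siRNA pair Cdkn1c was at -0.09.

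Cell division genes formed the largest group of lower genes. Over 8 lists on mitosis, replication, nucleotide supply, repair and the G1 to S transition, 258 of 275 measured genes were lower in the knockout, 42 of them by at least 2-fold, against 0.774% of all protein-coding genes. Their median was -0.57. Over all 12450 members 6924 were lower. In 239 of the 275 the knockout was the lowest of the 4 libraries, and the share over all genes was not computed. The siRNA pair had a median of -0.13 for the 275 genes. Between both controls it was 0.17, and with siNeg in place of wild type as the control the knockout median was -0.75.

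Among the mitotic genes, those of the spindle and kinetochore had the lowest medians at the filter of 1 FPKM. Among genes with at least 5 FPKM the kinetochore median was -0.39, against -0.46 for the mitotic cyclin list and -1.08 for the spindle list. All 32 measured spindle, kinesin and cytokinesis genes were lower, with 16 past 2-fold and a median of -1.0. Plk1, a kinase that drives mitotic entry, was at 12.2 FPKM in wild type, 3.62 in the knockout, 20.4 with siNeg and 17.1 with siDyrk2. Aurkb, the kinase of the chromosomal passenger complex, was at 9.07, 2.86, 10.4 and 9.03 FPKM, and its partner Birc5 at 6.86, 2.28, 10.02 and 9.27. In each the knockout stood alone as the low library. All 34 kinetochore and checkpoint genes were lower as well, with a median of -0.86, from Cenph (-1.28) and Bub1 (-1.16) to Zwint (-0.14). Of 32 mitotic cyclin, Cdk1 and APC/C genes 30 were lower (median -0.48), led by Ccna2 (-1.33), Fbxo5 (-1.20), Ube2c (-1.19) and Ccnb2 (-1.15). The ubiquitin ligase subunits Anapc5 (-0.05) and Anapc2 (0.08) were near wild type, and Pttg1, the securin gene, was at 0.21.

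Genes of S phase were lower as well. Of 51 replication genes 50 were lower with a median of -0.58, the lowest being Mcm5 (-1.20), a subunit of the replicative helicase, and Cdc6 (-1.13), which loads it. The origin recognition genes Orc4 (0.02) and Orc5 (-0.08) were near 0. Rrm2, the small subunit of ribonucleotide reductase, was at 25.1, 9.88, 30.9 and 26.6 FPKM in wild type, knockout, siNeg and siDyrk2. Nucleotide synthesis as a list had a median of -0.31 (28 of 30 lower), and DNA repair of -0.40 (35 of 36 lower), with Brca1 (-0.88) the lowest. In the G1 to S list Uhrf1 (-1.54), a reader of hemimethylated DNA, Ccne2 (-1.44), the cyclin E2 gene, and E2f8 (-1.04) were lowest. Ccne2 also differed in the siRNA pair (-0.85). The 34 measured p53 targets had a median of -0.03 and none was past 2-fold, while Ckap2, which also acts at the spindle, was at -0.81.

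Promoters of 4 genes are shown because they carry the motifs usually associated with timed expression in the cell cycle or, for the last, with interferon. They are RefSeq promoters on GRCm38.p6, each covering 250 bases before to 50 after the annotated start. For Plk1 (chr7:122159185-122159484, plus strand) and Ccnb2 (chr9:70421505-70421804, minus strand) the capitals mark the cell cycle homology region TTTGAA and the NF-Y motif CCAAT. For Mcm5 (chr8:75109259-75109558, plus strand) they mark an E2F motif, searched as TTTCCCGC and TTTGGCGC, here in its reverse complement. For Ifit3 (chr19:34583279-34583578, plus strand) they mark TTTCNNTTT, part of the interferon-stimulated response element. Only the motifs named for each gene were marked, so CCAAT also occurs unmarked in the Mcm5 and Ifit3 sequences. Both strands were searched for the marked motifs, and no marked match overlapped another in the 4 promoters.
Plk1: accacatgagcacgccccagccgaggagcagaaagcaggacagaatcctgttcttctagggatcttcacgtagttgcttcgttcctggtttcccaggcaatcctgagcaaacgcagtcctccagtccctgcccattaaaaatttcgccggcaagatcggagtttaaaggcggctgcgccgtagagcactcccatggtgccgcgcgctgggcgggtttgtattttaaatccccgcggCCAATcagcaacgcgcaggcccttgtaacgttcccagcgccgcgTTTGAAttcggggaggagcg
Ccnb2: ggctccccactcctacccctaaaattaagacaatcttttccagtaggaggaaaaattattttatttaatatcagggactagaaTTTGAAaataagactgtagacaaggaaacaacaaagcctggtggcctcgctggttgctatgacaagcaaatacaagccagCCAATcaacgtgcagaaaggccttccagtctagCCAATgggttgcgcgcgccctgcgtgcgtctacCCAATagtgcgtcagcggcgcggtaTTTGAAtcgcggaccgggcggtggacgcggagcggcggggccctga
Mcm5: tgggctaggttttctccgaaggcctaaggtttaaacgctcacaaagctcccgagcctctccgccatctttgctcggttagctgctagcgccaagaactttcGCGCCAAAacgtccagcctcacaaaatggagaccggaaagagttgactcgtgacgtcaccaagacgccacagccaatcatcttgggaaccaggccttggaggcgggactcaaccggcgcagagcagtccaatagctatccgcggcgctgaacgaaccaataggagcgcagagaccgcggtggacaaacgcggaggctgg
Ifit3: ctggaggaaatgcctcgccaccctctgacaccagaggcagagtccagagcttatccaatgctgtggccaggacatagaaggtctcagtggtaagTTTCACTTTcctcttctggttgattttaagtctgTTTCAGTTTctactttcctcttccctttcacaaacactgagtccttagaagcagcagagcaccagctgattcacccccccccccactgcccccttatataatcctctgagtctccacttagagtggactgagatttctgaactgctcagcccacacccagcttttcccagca

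A match to such letters is a description and not a site of binding. Among other promoters searched, those of Ifit1 and Hmgcs1 held matches to the motifs sought in them. Those of Uhrf1 held neither E2F motif. Ptch1, Hhip, Gli2 and Dyrk2 held no GACCACCCA, a Gli motif. A gene was counted if any of its promoters held the motif, while the shares of all promoters count each promoter by itself. Genes with several promoters thus had more chances to match. RefSeq promoters were matched for 35 of the 42 cell division genes at least 2-fold lower, and 57.1% of them held TTTGAA, against 17.9% of all 32851 promoters of the same length. CCAAT was in 74.3% of the 35 and in 37.4% of all. Of 28 spindle genes with a promoter 85.7% held TTTGAA. Of 42 replication genes 16.7% did, while 21.4% held TTTCCCGC and 16.7% TTTGGCGC, against 1.07% and 0.514% of all promoters. Of 31 interferon-stimulated genes 67.7% held TTTCNNTTT, against 10.6% of all. The spindle, replication and interferon lists were drawn up by function, so their shares describe their genes and not the libraries. The 35 were also picked as lower in the knockout, and how their shares relate to that choice was not tested. The check is void for the Hedgehog targets, the sterol enzymes and the 27 higher genes, since fewer than 80% of each had a promoter in the table.

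The enzymes of sterol synthesis were lower without exception. All 20 measured were lower, none by 2-fold, with a median of -0.57 in the knockout pair, 0.04 in the siRNA pair and 0.02 between the controls. Hmgcs1, which makes HMG-CoA, was at 65.4 FPKM in wild type, 41.8 in the knockout, 59.1 with siNeg and 66.4 with siDyrk2. Fdps (-0.79), Acat2 (-0.75), Fdft1 (-0.70) and Sqle (-0.63) were similar, and Ebp (-0.05) was the closest to wild type. The genes that control or carry sterol did not share this direction, with 14 of 21 higher, 7 lower and a median of 0.11. Apoe, a lipoprotein component, was its highest member at 168 against 89.7 FPKM, and the cholesterol exporters Abcg1 (0.55) and Abca1 (0.41) were also higher. The transporter Stard4 (-0.55) and the sensor Insig1 (-0.49) were among its lower members. Fatty acid synthesis genes were lower in 16 of 20, with a median of -0.20, and Fads2 (-0.68) and Scd2 (-0.57) were the lowest.

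Genes tied to PPAR receptors and fat storage were higher in 19 of 26 and had a median of 0.29. Angptl4, an inhibitor of lipoprotein lipase, was at 5.13 FPKM in wild type, 17.5 in the knockout, 3.90 with siNeg and 7.01 with siDyrk2. Cd36, a fatty acid receptor, was at 8.29, 19.4, 7.97 and 12.1 FPKM, so the knockout was the highest library for both. The lipid droplet gene Plin2 was at 0.63 and the lipase gene Lpl at 0.56, and Lepr, already described, was the lowest. Cd36, Lpl and Apoe are also expressed by macrophages, whose markers differed as given next.

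All 18 measured macrophage and leukocyte markers of 26 were higher in the knockout, 2 by at least 2-fold against 0.246% of protein-coding genes, with a median of 0.71, or 0.28 with siNeg as the control. Their summed level was 299 FPKM in wild type, 586 in the knockout, 351 with siNeg and 432 with siDyrk2. Lyz2, the lysozyme gene, was at 152, 329, 154 and 196 FPKM. The receptor gene Csf1r was at 4.00, 7.96, 6.09 and 6.18 FPKM and the marker Adgre1 at 6.32, 11.8, 7.67 and 9.13, so wild type was the lowest library and the knockout the highest for each of the 3. Ptprc, the general leukocyte gene, was below 1 FPKM, at 0.45 in wild type and 0.70 in the knockout, and none of the 6 defining markers was at 0. Of other cell types, the 4 measured mesothelial markers had a median of 0.49 over wild type and of 0.13 over siNeg. Upk3b was at 1.95 FPKM in wild type, 3.2 in the knockout, 3.15 with siNeg and 4.27 with siDyrk2, so wild type was the low library. The 3 measured endothelial markers had a median of -0.01.

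Of 38 measured interferon-stimulated genes 34 were higher, 3 of them past 2-fold against 0.246% of protein-coding genes, and the median was 0.37. With siNeg as the control of the knockout it was 0.20, since siNeg was itself above wild type in 29 of the 38, by a median of 0.19. Ifit3 was at 9.13 FPKM in wild type, 23.5 in the knockout, 10.1 with siNeg and 10.4 with siDyrk2, so only the knockout stood apart. Ifit1 was at 2.49, 7.42, 3.37 and 7.21 FPKM and Slfn5 at 2.15, 5.34, 2.52 and 5.34, both high in the knockout and siDyrk2 libraries. Slfn9 (-0.99), of the same family, was on the other side. Of 15 class I MHC and immunoproteasome genes 13 were higher (median 0.34, and 0.19 with siNeg as the control), with H2-D1 at 0.76 and H2-K1 at 0.69. Reads of near-identical H2, Slfn and Ifit genes may have been split between copies. None of the interferon or MHC genes is on the macrophage list, whose summed level was also higher in the knockout, and the part of macrophages in these values was not tested.

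Complement genes were higher in 12 of 14 and had a median of 0.53 in the knockout pair and -0.23 in the siRNA pair. Clu, a secreted chaperone, was at 9.17 FPKM in wild type, 19.7 in the knockout, 6.79 with siNeg and 5.72 with siDyrk2. C2 (0.90), the regulator Cd55 (0.74) and Serping1 (0.68), the C1 inhibitor, were higher too, and C1qa (0.63), C1qb and C1qc are also on the macrophage list. Of the chemokines, Ccl2 was at 28.8, 58.9, 11.6 and 28.4 FPKM, which places siNeg lowest rather than wild type. Ccl7 was at 0.89, and Cxcl14 was lower in both pairs (-1.16 and -0.97). NRF2 targets and metal-binding genes were higher in 28 of 30 (median 0.24), among them Mt2 (0.86) and Hmox1 (0.66), and these 2 were also higher in the siRNA pair, at 1.39 and 0.58. Lysosome and autophagy genes were higher in 34 of 40 by a median of 0.15, with none past 2-fold and Lgmn (0.45) and Ctsb (0.44) the highest.

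**Figure D4:**
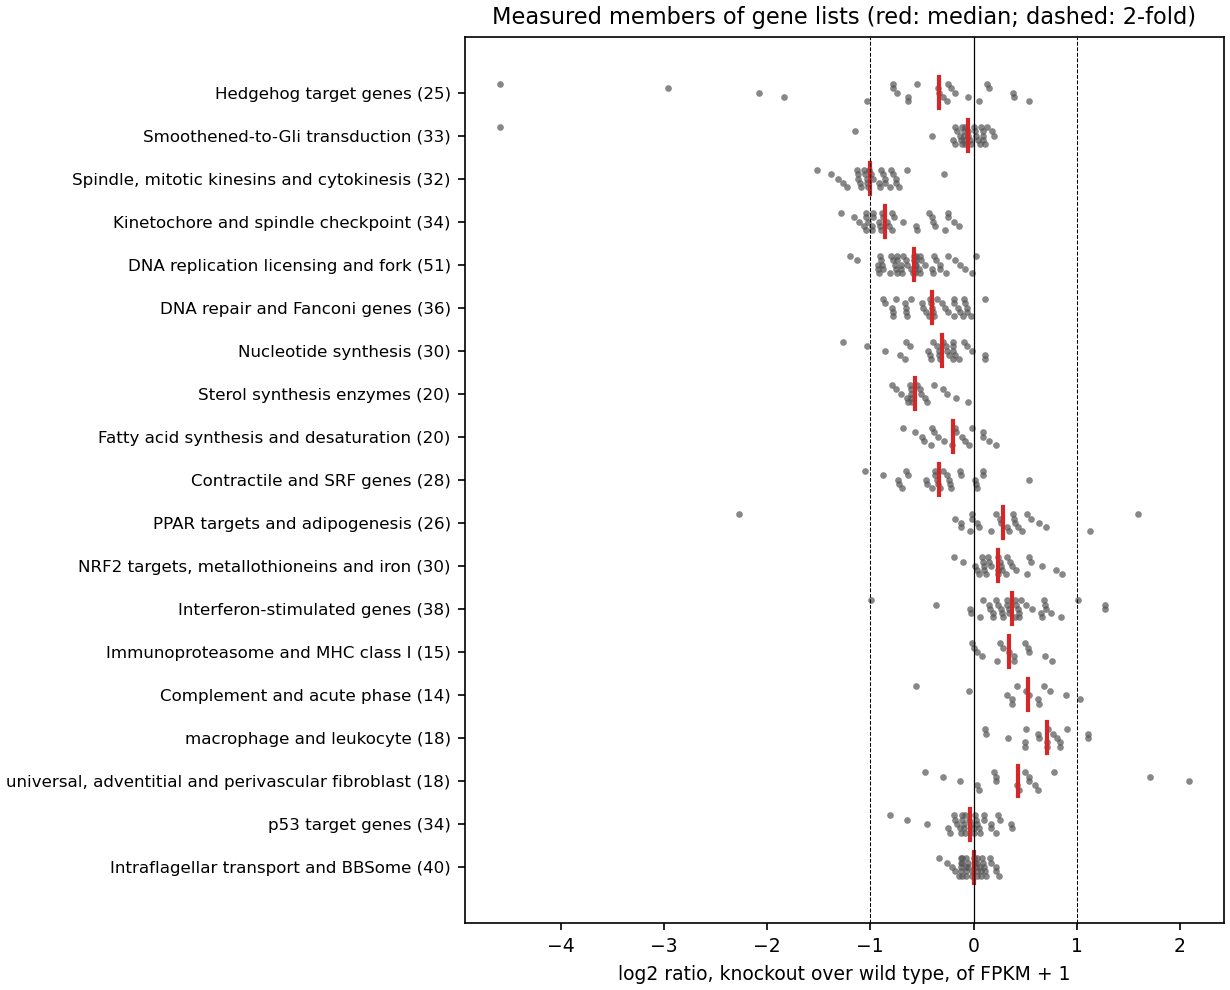
Log2 ratio of knockout over wild type for each measured member of 19 gene lists, with the number measured in parentheses, the median in red and 2-fold as dashed lines. All points of the spindle, kinetochore and sterol lists lie left of 0 and all of the macrophage list right of 0. The transduction list is near 0 apart from Gli1, Gli2 and Tulp3, and the intraflagellar transport list throughout.

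The fibroblast markers held their high levels, with Col1a1 at 3233 FPKM in wild type against 3276 in the knockout and Vim at 507 and 576. Thy1, a surface marker of many fibroblasts, was the exception at 288 against 159 FPKM. Markers of adventitial and universal fibroblasts, matrix-rich cells around vessels, were higher in 15 of 18 and had a median of 0.43. Clec3b, the tetranectin gene, was at 20.4 FPKM in wild type, 90.1 in the knockout, 16.0 with siNeg and 20.8 with siDyrk2, 4.41-fold higher (3.99 to 4.88). Sfrp2, a secreted Wnt modulator, was at 85.1, 281, 45.8 and 78.8 FPKM, 3.30-fold higher (3.19 to 3.42). Cd34 (0.78), Gsn (0.62) and Dpt (0.60) followed, and all 5 were highest in the knockout among the 4 libraries. For this list the siRNA pair had a median of 0.03 and siNeg against wild type of -0.27.

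Matrix genes differed member by member. Among the proteoglycans Dcn was at 257 FPKM in wild type against 508 in the knockout and Lum at 185 and 340, while the hyaluronan receptor Cd44 (-0.74) was lower. The 26 measured collagens had a median of 0.02, with the fibril-forming Col3a1 at 0.26 and the basement membrane genes Col4a1 (-0.60) and Col4a2 (-0.44) on the other side. In the siRNA pair Col3a1 was at -0.41 and Col4a1 at -0.02. Of matrix proteases and inhibitors 26 of 37 were higher, with Mmp2 (0.82) among the highest and Timp3 (-0.60), an inhibitor of such enzymes, lower. Counted as a share of all fragments, the largest gain of the knockout over wild type was that of Col3a1, at 0.325 percentage points. The largest loss was that of Timp3, at 0.467% in wild type and 0.308% in the knockout.

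**Figure D5:**
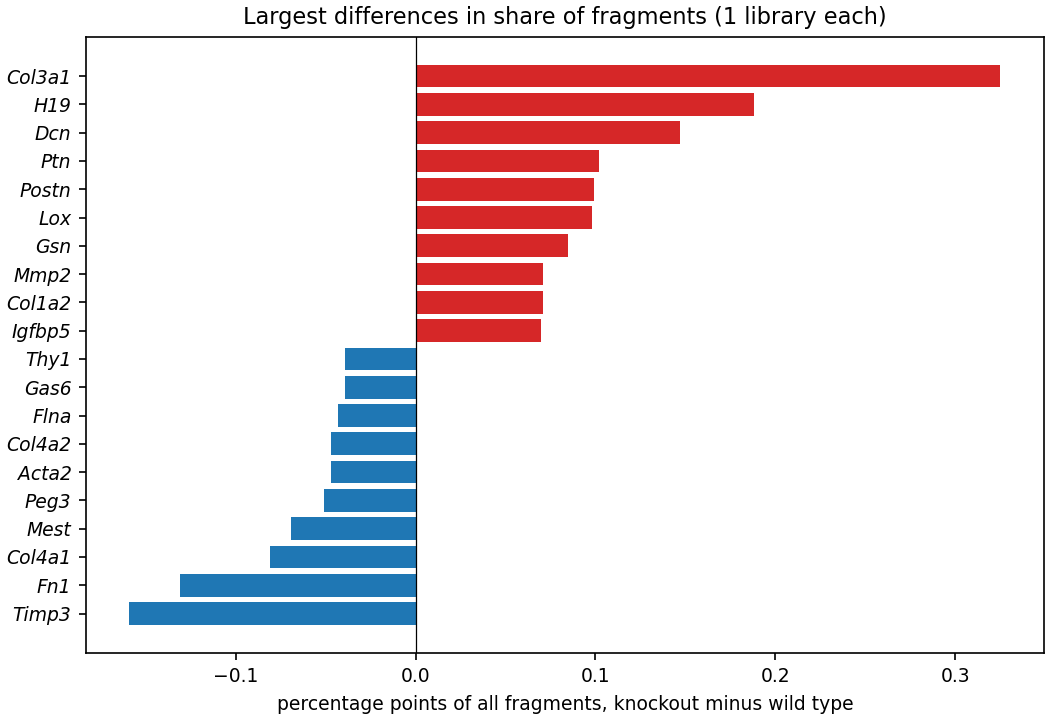
Difference in the share of all fragments, in percentage points, knockout minus wild type, for the 10 genes with the largest gain (red) and the 10 with the largest loss (blue). Col3a1, H19 and Dcn are at 0.325, 0.188 and 0.147 points, and Timp3 and Fn1 at -0.159 and -0.131.

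Contractile and SRF-dependent genes were lower in 22 of 28, with a median of -0.33 and 1 gene past 2-fold, against 0.774% of protein-coding genes. Acta2, smooth muscle actin, was at 537 FPKM in wild type, 322 in the knockout, 669 with siNeg and 1205 with siDyrk2. Cnn1, the calponin gene, was at 11.1, 4.86, 8.80 and 12.2 FPKM and Actg2 at 22.5, 11.8, 19.03 and 39.04. The knockout was thus the lowest and siDyrk2 the highest library for each of the 3, and over the list the siRNA pair had a median of 0.36. Itga8 (0.54 in the knockout pair) was the highest member. The 10 measured pericyte and smooth muscle markers had medians of -0.26 in the knockout pair and 0.37 in the siRNA pair, and of 0.23 with siNeg as the control of the knockout. The differences between the pairs were not tested. The adhesion genes Mcam and Itga6 were both at -1.12.

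Genes of other signalling families were mixed, with list medians between -0.04 and 0.04 for TGF-beta and BMP, Wnt, FGF, Notch and insulin-like growth factor genes. Of the Wnt list, the R-spondin receptor Lgr4 was at 27.9 FPKM in wild type, 13.6 in the knockout, 34.8 with siNeg and 19.4 with siDyrk2, and Dkk2, a Wnt antagonist, at 27.9, 15.2, 25.3 and 13.8. Both were lower in both pairs, like the ligand Wnt2b (-0.96 and -0.88) and the receptor Fzd4 (-0.60 and -0.94). Lgr5 (0.70 and 0.95) and Sfrp2 were higher in both. Of the growth factors Fgf5 (-1.18 and -0.91) was lower in both pairs and Fgf18 (0.83 and 0.58) higher in both. Sema3d (0.98 and 0.01), a guidance ligand, and the patterning factor Osr2 (0.87 and -0.07) were higher in the knockout pair, and these differences between the pairs were not tested. Kcne4, a potassium channel subunit, was at -1.26 and -0.92, and the receptor Ephb2 at -0.72 and -0.80. The alcohol dehydrogenase Adh1, of retinol metabolism, was at 33.5 FPKM in the knockout and 13.7 to 16.2 in the other 3 libraries, and the lysophosphatidic acid receptor Lpar4 at 17.7 and 6.83 to 10.3. Agtr2, an angiotensin receptor, was abundant throughout, at 541 FPKM in the knockout and 373 in wild type.

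Several large housekeeping lists had small medians with a common sign. Proteasome subunits were lower in 30 of 31 (median -0.13), ribosome biogenesis genes in 29 of 34 (-0.15), tRNA synthetases in 17 of 20 (-0.15) and endoplasmic reticulum chaperones in 19 of 22 (-0.13). None of their members was past 2-fold. Over all 12450 members 6924 were lower, with a median of -0.02. Glycolysis and hypoxia genes (median 0.02), Hox genes (0.06) and nuclear genes of the respiratory chain (-0.06) were close to the rest of the transcriptome.

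The differences were spread over the genome. Over the autosomes and the X chromosome the median ratio of protein-coding genes lay between -0.04 and -0.00 for each chromosome. Within 5 Mb of Dyrk2, 37 measured protein-coding genes had a median of -0.04, and of these 1, Lyz2, was past 2-fold. Within 20 Mb, 124 such genes had a median of -0.02 and 2 were past 2-fold, Lyz2 (1.11) and Gli1 (-4.59). Gli1 lies on chromosome 10 like Dyrk2, at 127329882 to 127341974. The Y chromosome stood apart. Its genes Ddx3y, Eif2s3y and Uty, widely expressed in male cells, were at 8.28, 4.58 and 1.12 FPKM in the knockout. They were at 0.02, 0 and 0 FPKM in wild type and at 0 in both siRNA libraries. Ddx3y was 414-fold higher than in wild type, which held 2 fragments (142 to 4260.4), and Eif2s3y and Uty were at least 152-fold and 87.5-fold higher, taking 3 fragments as the floor of a library. Xist is transcribed from the inactive X chromosome of female cells. It was at 37.1 FPKM in wild type, 26.4 in the knockout, 32.3 with siNeg and 27.5 with siDyrk2. Xist falls outside the rule for named genes and was picked after its values were seen. RNA of Y-linked genes thus went with the knockout label, and in the comparison of these libraries the effects of the Dyrk2 genotype and of the sex of the embryos cannot be told apart.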

How the data were processed

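RNA from 4 cultures was sequenced, with 1 library per group. Reads were trimmed with cutadapt 1.9.1 and aligned with HISAT2 2.0.1 to GRCm38, per the submitters' processing notes. For the counting program, its annotation and its use of strand, the information was not given in the sources used here. Per gene, the authors deposited FPKM to 2 decimals. FPKM makes a gene's value depend on the total of its library, and other scalings shifted the ratios by 0.03 on the log2 scale.

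Gene types and positions came from GENCODE by identifier, which matched 55480 of 55573 (93 did not match). Ratios are log2 of (FPKM + 1), for genes with at least 1 FPKM in either library, and understate differences of low genes. Because FPKM of short genes came in whole steps of 1 fragment, the total of each library was estimated from genes of up to 200 bases, of which 99.2% to 100% came out whole. Fragments per gene follow from FPKM, length and that total. Fold intervals are exact 95% binomial intervals, in which a count of 0 stayed 0. A floor of 3 fragments was used only for the folds of Y-linked genes at 0 in wild type. Python 3.11.15, numpy 2.4.6, scipy 1.17.1, pandas 2.3.3 and matplotlib 3.10.9 were used, and the steps were tested on simulated data.

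The members and gene lists were chosen with earlier results of these data known. Named genes are Dyrk2 and the Hedgehog lists, the 20 highest and 20 lowest protein-coding genes with at least 5 FPKM, the 5 highest, 5 lowest and 3 most abundant of each list, and the 10 largest gains and 10 largest losses of fragment share. Adgre1 and C1qc were named as markers after their values were seen. Alternatives were other pseudocounts, filters, scalings, gene types and control library. A few genes that the rule takes are not reported here.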

Additional observations from a re-analysis of the deposited data

Results flagged for a closer look

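Many results lay on opposite sides of 0 in the knockout pair and the siRNA pair. Those given here passed a limit of size in both pairs, a median of 0.25 for a list, and for a protein-coding gene 2-fold in the knockout pair and 0.5 on the log2 scale in the siRNA pair. None of these differences was tested. The contractile and SRF genes had a median log2 ratio of -0.33 in the knockout pair and 0.36 in the siRNA pair. The pericyte and smooth muscle markers had medians of -0.26 and 0.37. The histone gene Hist2h2aa2 was at 1.28 and -0.58, and Cox20, a cytochrome oxidase assembly gene, at 1.92 and -0.58. Both rest on few fragments, Hist2h2aa2 on 7 in wild type and 32 in the knockout and Cox20 on 6 and 74. With siNeg and siDyrk2, Hist2h2aa2 was at 1.42 and 0.62 FPKM and Cox20 at 1.19 and 0.47. Hist2h2aa2 has a near-identical copy, so its reads may have been split by the counting.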

How the results depend on the processing

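The counts of genes at least 2-fold higher and lower, 73 and 155, depended on the settings. They were 184 and 365 with a pseudocount of 0.1 FPKM, 8 and 14 with 5 FPKM, 27 and 68 among genes with at least 5 FPKM, and 15 and 30 with at least 10 FPKM. The stricter filters leave fewer genes. With siNeg as the control of the knockout they were 174 and 254, and the cause was not tested. Protein-coding genes alone gave 27 and 85. Trimmed-mean and median-ratio scaling gave 79 and 151 each. Of 21 gene lists with a median beyond 0.25, 2 turned direction, both with siNeg as the control: the epithelial and keratinocyte list at -0.02, which rests on 1 gene, and the pericyte and smooth muscle list at 0.23. Other medians changed in size without turning, such as that of the kinetochore list from -0.86 to -0.25 among genes with at least 10 FPKM. Of 80 named genes past 2-fold, 0 turned direction in the settings run. No paired analysis was possible because each group has 1 library. With 1 library a group no replicate could be left out.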
